A study of Homo sapiens with 9 samples.

Results

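Interferon-stimulated genes and the RNA sensors that switch them on were followed in RKO colorectal cancer cells after depletion of UHRF1 by siRNA, inhibition of histone deacetylases by trichostatin A (TSA), both together, or 5-aza-2′-deoxycytidine (5-aza-dC). The set holds 51 genes of the 36337 gene names on the array: 5 sensors, 4 transcription factors and 42 effectors. Members were matched by gene name among the non-control probes, and the brightest probe stood for a gene that had more than 1. Of the 51, 36 had 1 probe and 15 had several.

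RKO is an established colorectal cancer cell line, and UHRF1 is the protein that recruits the maintenance DNA methyltransferase to replicated DNA. Total RNA was hybridized to 9 Agilent SurePrint G3 arrays in 1 colour, in 5 groups. There were 2 arrays each of cells with control siRNA and ethanol (siCONT), UHRF1 siRNA and ethanol (siUHRF1), control siRNA and TSA (siCONT + TSA), and UHRF1 siRNA and TSA (siUHRF1 + TSA, called the combination below). The siRNAs acted for 72 h, then 300 nM TSA or ethanol was added for 24 h, so RNA came from cells at 96 h. Replicate 1 of each UHRF1-depleted group carried siUHRF1-1 and replicate 2 carried siUHRF1-2, which are different sequences. The last group was 1 array of cells without siRNA, exposed for 72 h to 5-aza-dC at 1 µM. Its slide and its scan were not those of the siRNA arrays, so its treatment, the missing transfection, the slide and the scan cannot be told apart. The labels do not say whether the replicates were separate cultures, and p-values then measure the spread between these arrays, which may be technical. In the UHRF1-depleted groups that spread also holds any difference between the siRNAs. The median absolute log2 difference between replicates, over all tested probes, was 0.26 in siUHRF1 and 0.19 in the combination. It was 0.070 in siCONT and 0.076 in siCONT + TSA, and the tests pooled these unequal spreads.

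Cells detect double-stranded RNA in the cytoplasm with the helicases RIG-I and MDA5, which signal through MAVS, and in endosomes with TLR3. The signal leads to secretion of interferon, and interferon receptors then activate a complex containing STAT2 and IRF9 that binds the interferon-stimulated response element (ISRE) in the promoters of antiviral genes. Loss of DNA methylation is known to let endogenous retroviral sequences be transcribed, and the response of the sensors to such RNA is called viral mimicry.

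Part of the set rose in the combination, a few members fell, and the larger part did not pass the test. In the combination 14 of 41 tested members were called higher than siCONT and 4 lower, against 16.1% and 8.07% of all 17743 gene names tested, so 34.1% and 9.76% of the members stood beside those shares. The median log2 difference of the tested members was 0.31, and that of all names 0.067. Over the 33 members above background on all 9 arrays the median was 0.14. By role, 1 of 5 sensors was called higher and 1 lower, 1 of 4 transcription factors was called higher, and 12 of 32 tested effectors were called higher and 3 lower. A gene was tested when some group had its probe well above background on each of its arrays, and it was called at a Benjamini-Hochberg adjusted p of limma below 0.05. The 10 members that were not tested could not be called, and 5 of the 14 called higher were below background on both siCONT arrays, so they entered the test only through a group where they were high.

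After UHRF1 depletion alone, limma called 0 of 41 members in either direction, where the background was 0.614% of names higher and 0.0282% lower. At an unadjusted p below 0.05 there were 4, IFI27, TRIM22, IFIT1 and IFI6, each on the higher side. The members' median was 0.14 and 33 of 41 lay above 0, while the median of all names was near 0 at -0.0014. No share of all names was taken at that unadjusted p or above 0, so neither count has a background beside it. TSA alone raised 5 members and lowered 0, against 6.97% and 3.85% of names, with a median of 0.11 beside 0.083. Among TSA-treated cells, UHRF1 depletion raised 4 members (IFI27, DHX58, IFIT3 and IRF9) and lowered 0, against 3.27% and 0.581%, with a median of 0.024. The test of whether TSA altered the effect of UHRF1 depletion called 1 member, IFI27, on the higher side, against 0.361% of names higher and 0.0282% lower. On the 5-aza-dC array 11 of 43 tested members were called higher and 19 lower, against 25.2% and 23.9% of the 20286 names tested, with a median of -0.27 beside 0.051 for all names. SAMD9, among the 19, was below background on that array and on both siCONT arrays.

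**Figure D1:**
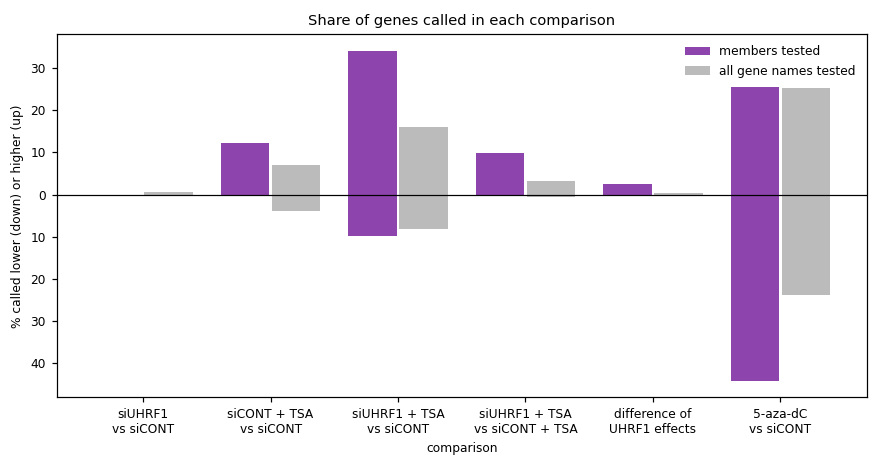
Share of tested genes called higher (bars above 0) and lower (bars below 0), in percent, for the members (purple) and for all gene names (grey) in the 6 comparisons. In the combination 34.1% of members were called higher beside 16.1% of names, and on the 5-aza-dC array 44.2% of members were called lower beside 23.9%, under scaling on the 75th percentile.

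Because the filter favours genes that are high somewhere, the counts were also taken over the 35 members above background on both siCONT arrays, a restriction chosen after the data were seen. There 9 members were called higher and 4 lower in the combination (25.7% and 11.4%), beside 13.6% and 8.62% of the 16476 names restricted in the same way, and the median was 0.26 beside 0.041. TSA alone gave 4 higher and 0 lower, beside 6.62% and 4.09% of those names. Among TSA-treated cells 1 member, IRF9, stayed called, beside 1.52% higher and 0.607% lower. On 5-aza-dC 7 were called higher and 18 lower, beside 17.9% and 29% of names. The siCONT arrays enter 5 of the comparisons and the combination arrays enter 3, so these counts are not independent of each other. The counts also depended on single arrays. Without siCONT replicate 1 the combination gave 7 called members, TSA 1 and 5-aza-dC 19, and without siCONT replicate 2 the combination gave 10 and TSA 2. TSA gave 8 when either siUHRF1 array was left out and 1 when either siCONT + TSA array was, which also took UHRF1 depletion under TSA from 4 to 2. In these bulk RNA samples a change of level in every cell cannot be told apart from a change in the share of cells that express a gene.

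**Figure D2:**
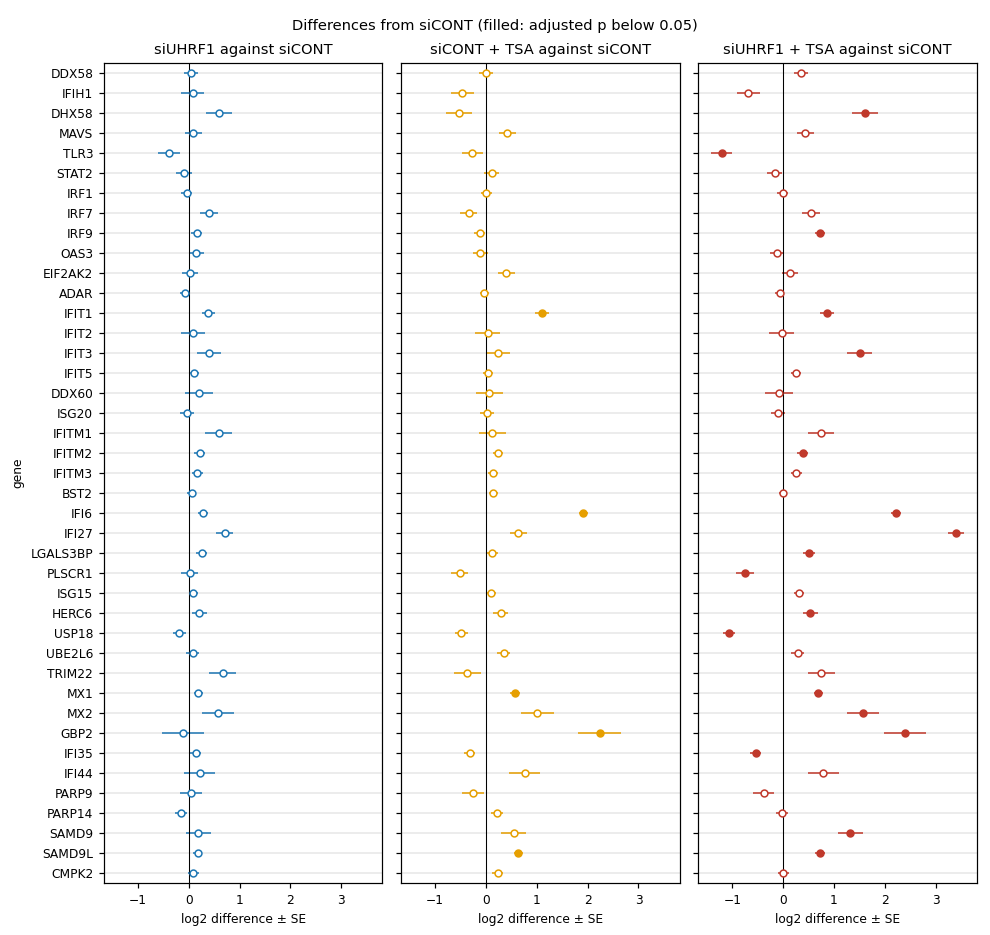
Log2 difference from the siCONT mean with its standard error (horizontal bars) for the 41 tested members in siUHRF1, siCONT + TSA and siUHRF1 + TSA. Filled points have an adjusted p below 0.05 in limma: 0 in the first panel, 5 in the second and 18 in the third, of which 4 lie below 0.

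The promoters of the set are shown because most carry the element bound by the complex that contains IRF9. In the RefSeq windows of 250 bases before to 50 after the start site (GRCh38.p14), 41 of the 51 members had an entry. The ISRE core (GAAANNGAAA on either strand) was found in 26 of them (63.4%) and in 996 of all 27305 windows (3.65%). The gamma-activated site (TTCNNNGAA, whose reverse complement has the same form) was found in 12 members (29.3%) and in 7.88% of all windows. Capitals mark ISRE cores in the stretches printed here, which lie upstream of the start site and read 5′ to 3′ on the strand of the gene. IFI27 and IFI6 had the largest fitted differences in the combination among genes with an entry, IFIT1 and IFIT3 belong to 1 cluster on chromosome 10, HERC5 was high on the 5-aza-dC array alone, PLSCR1 fell in the combination, and IRF9 was called higher with no core in this window.
IFI27, chr14:94110608-94110670 (plus strand): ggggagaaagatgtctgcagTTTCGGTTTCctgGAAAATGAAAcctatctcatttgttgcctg
IFI6, chr1:27672256-27672368 (minus strand): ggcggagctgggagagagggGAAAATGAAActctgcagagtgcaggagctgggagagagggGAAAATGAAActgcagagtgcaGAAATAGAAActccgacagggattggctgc
IFIT1, chr10:89392487-89392549 (plus strand): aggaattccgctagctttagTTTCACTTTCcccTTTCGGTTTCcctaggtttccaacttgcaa
IFIT3, chr10:89327821-89327904 (plus strand): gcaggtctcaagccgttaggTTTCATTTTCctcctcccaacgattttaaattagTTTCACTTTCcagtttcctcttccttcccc
HERC5, chr4:88456974-88457074 (plus strand): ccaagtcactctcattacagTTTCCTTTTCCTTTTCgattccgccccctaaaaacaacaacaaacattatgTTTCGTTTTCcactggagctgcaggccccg
PLSCR1, chr3:146544657-146544706 (minus strand): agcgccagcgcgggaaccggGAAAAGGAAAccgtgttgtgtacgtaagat
IRF9, chr14:24161185-24161264 (plus strand): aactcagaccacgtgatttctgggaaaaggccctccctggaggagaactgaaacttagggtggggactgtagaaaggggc

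Members with the core were found in every class of response. In the combination it was in 7 of 10 members called higher with an entry, in 2 of 3 called lower and in 12 of 20 not called. On the 5-aza-dC array it was in 5 of 7 called higher, 11 of 17 called lower and 6 of 10 not called. The windows of the members held a median of 9 CpG sites (0 to 45), and all windows a median of 14 (0 to 77). IRF7, OASL, TRIM22, USP18, OAS2, MX2, IFIT2, GBP2, IFITM2 and DHX58 are named without a window.

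Of the 51 members, 33 were well above background on all 9 arrays, 10 on some and 8 on none. The 8 were OAS1, OASL, RSAD2, RTP4, GBP1, IFI44L, XAF1 and EPSTI1, several of which are among the most inducible interferon targets. The number above background was 36 and 35 on the siCONT arrays, 40 and 39 on siUHRF1, and 37 and 38 on siCONT + TSA. It was 42 and 41 in the combination, and 38 on 5-aza-dC. Of all probes, 45.5 and 44.7%, 45.7 and 46.6%, 44.9 and 43.6%, 46.4 and 46.3%, and 51.6% were above background on the same arrays in that order. Levels below are the probe's signal as a percentage of the array's own 75th percentile, and they are compared only between arrays, not between genes.

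**Figure D3:**
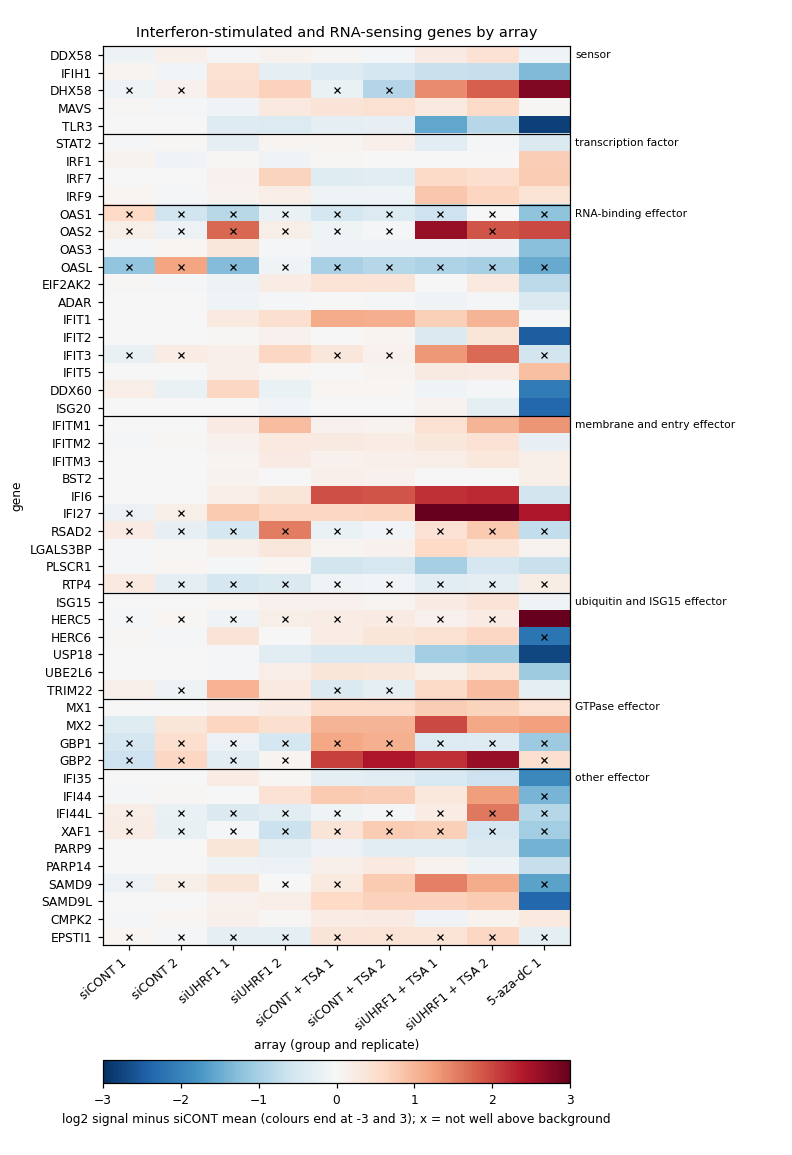
Log2 signal of each of the 51 members on each array minus its siCONT mean (blue below, red above, colours ending at -3 and 3), by role, under scaling on the 75th percentile. Crosses mark probes not well above background. IFI27, IFI6, DHX58 and IFIT3 are red in both combination arrays, IFI27 there and HERC5 on 5-aza-dC lie past the red end of the scale, and TLR3 and USP18 on 5-aza-dC are the deepest blue.

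The 5 sensors did not move together. DHX58, which encodes LGP2, a helicase that modulates RIG-I and MDA5 signalling (probe at chr17:40253459-40253518, hg19, minus strand), read 3.01 and 3.63% on the siCONT arrays and 2.89 and 1.8% with TSA alone, none of them well above background. With UHRF1 depletion it read 4.61 and 5.34%, in the combination 8.82 and 11.4%, and on 5-aza-dC 22.5%, all above background. Only those groups, where it was higher, brought it into the tests. It was the only sensor called higher, at least 2.01-fold in the combination (fitted log2 difference 1.60 ± 0.25 SE, adjusted p = 0.00827) and at least 1.86-fold against siCONT + TSA (adjusted p = 0.00907). On the 5-aza-dC array it was at least 4.49-fold higher (adjusted p = 0.00116). Without siCONT replicate 1 the call in the combination was lost, and with another background correction (normexp) the difference under TSA turned to -0.15. A lower limit of this kind takes, for each array of the group below background, the larger of the probe's signal and the dimmest signal that counted as detected there.

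TLR3, the endosomal receptor for double-stranded RNA (probe at chr4:187005890-187005949, plus strand), went the other way. It read 75 and 75.9% on siCONT, 58.1 and 57.2% on siUHRF1, 61.7 and 63.8% on siCONT + TSA, 25.7 and 41.4% in the combination and 10.9% on 5-aza-dC. Every treated array lay below both siCONT arrays. The fall was called in the combination (log2 -1.21 ± 0.21, adjusted p = 0.0114) and on 5-aza-dC (-2.79 ± 0.27, adjusted p = 0.000577), and not among TSA-treated cells (-0.94, adjusted p = 0.0787).

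The cytoplasmic sensors themselves were less altered in siRNA-treated cells. IFIH1, which encodes MDA5, read 118 and 107% on siCONT, 153 and 92.8% on siUHRF1, 85.7 and 77.4% on siCONT + TSA, 70.9 and 69.2% in the combination and 44.7% on 5-aza-dC. The siUHRF1 arrays lay on either side of siCONT, and the other treated arrays lay below it. It was called lower on 5-aza-dC (-1.33 ± 0.29, adjusted p = 0.0113) and missed the threshold in the combination (-0.69, adjusted p = 0.0767). DDX58, which encodes RIG-I, read 22.5 and 27.8% on siCONT and 29.8 and 34% in the combination, a difference of 0.35 that did not pass (adjusted p = 0.126). Its dimmer second probe was called higher there (0.97, adjusted p = 0.0319). MAVS, the mitochondrial adaptor of both helicases, read 318 and 307% on siCONT and 380 and 468% in the combination, and was called in no comparison by its brightest probe. On 5-aza-dC that probe differed by 0.045, while 5 of its 7 probes were called lower, with differences from -1.72 to 0.31.

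Among the 4 transcription factors, IRF9 was called higher under the combination. IRF9 is the DNA-binding subunit of the complex that acts on the ISRE (probe at chr14:24635500-24635559, plus strand). It read 37.7 and 34.6% on siCONT, 39.1 and 41.3% on siUHRF1, 33.2 and 33.1% on siCONT + TSA, 62.9 and 56.6% in the combination and 47.8% on 5-aza-dC. Both combination arrays lay above every other array. The rise was 1.65-fold against siCONT (log2 0.73 ± 0.10, adjusted p = 0.00592) and 1.80-fold against siCONT + TSA (0.85 ± 0.10, adjusted p = 0.00974). The difference between its responses to UHRF1 depletion with and without TSA was 0.69 and was not called (adjusted p = 0.279). Leaving out siCONT replicate 2 lost the first call, leaving out either siCONT + TSA array lost the second, and normexp lost both.

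IRF7, which amplifies interferon induction, read 417 and 420% on siCONT, 458 and 660% on siUHRF1, 325 and 337% on siCONT + TSA, 628 and 595% in the combination and 711% on 5-aza-dC. Both combination arrays lay above siCONT, and TSA arrays below it, but neither the difference from siCONT (0.55, adjusted p = 0.0679) nor that from siCONT + TSA (0.89, adjusted p = 0.0522) passed. STAT2, another subunit of the complex that acts on the ISRE, read 1360 and 1440% on siCONT and 1130 and 1370% in the combination (-0.17, adjusted p = 0.456). IRF1, a factor that can bind interferon-response promoters on its own, read 31.2 and 26.8% on siCONT, 28.7% on both combination arrays and 48.2% on 5-aza-dC. On the 5-aza-dC array IRF1 (0.74), IRF7 (0.76) and IRF9 (0.41) were called higher with adjusted p from 0.00689 to 0.0407, but scaling on the spike-in probes turned them to -0.56, -0.53 and -0.89.

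**Figure D4:**
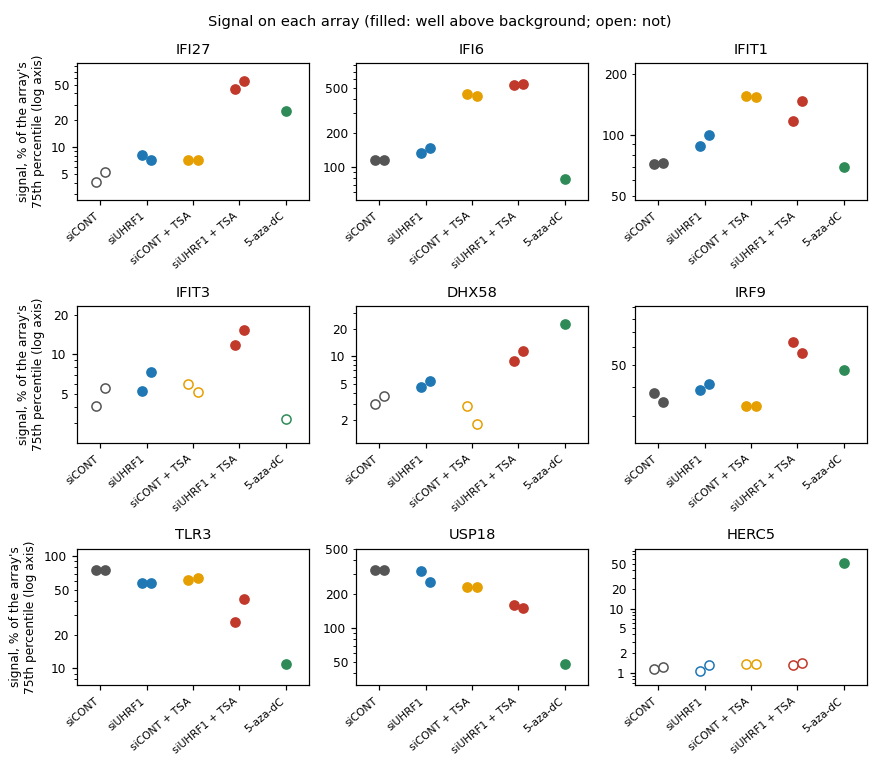
Signal of 9 members on each array as a percentage of the array's 75th percentile (log axis; filled points are well above background, open points are not). The combination arrays lie above all other siRNA arrays for IFI27, IFI6, IFIT3, DHX58 and IRF9, below them for TLR3 and USP18, and HERC5 is above background on the 5-aza-dC array alone.

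Among 8 tested effectors of membranes and viral entry, 4 were called higher in the combination and 1 lower, against 16.1% and 8.07% of all names tested. IFI27, a small mitochondrial protein that is strongly induced by interferon (probe at chr14:94582967-94583026, plus strand), read 4.13 and 5.34% on siCONT, both below background. It read 8.14 and 7.22% on siUHRF1, 7.28 and 7.3% on siCONT + TSA, 44.8 and 54.6% in the combination and 25.3% on 5-aza-dC. Only these groups, where it was higher than in siCONT, brought it into the tests. The single treatments overlapped each other, and both combination arrays stood above every other array. It was at least 9.72-fold above siCONT (fitted log2 3.40 ± 0.16, adjusted p = 0.000158) and 6.78-fold above siCONT + TSA (2.76 ± 0.16, adjusted p = 0.000543). Against siCONT it was at least 1.51-fold higher after UHRF1 depletion alone (adjusted p = 0.219) and at least 1.43-fold with TSA alone (adjusted p = 0.0606), and neither passed. The fitted effect of UHRF1 depletion was larger with TSA by 2.05 ± 0.23 on the log2 scale (adjusted p = 0.0312). Both siCONT arrays that enter this difference were below background, so its size is not exact, and a lower true siCONT level would make it smaller. It ran from 0.73 to 2.24 in 20 alternatives and kept its call in 8 of them. The call was lost with the replicate number as a block, and when any 1 siUHRF1, siCONT + TSA or combination array was left out.

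IFI6, an interferon-induced protein with antiapoptotic activity, responded to TSA. It read 116 and 115% on siCONT, 133 and 148% on siUHRF1, 444 and 427% on siCONT + TSA, 530 and 541% in the combination and 79.1% on 5-aza-dC. Each group lay apart from the others. TSA alone raised it 3.77-fold (log2 1.92 ± 0.095, adjusted p = 0.00142) and the combination 4.64-fold (2.21 ± 0.095, adjusted p = 0.000102). UHRF1 depletion added 0.30 among TSA-treated cells, which did not pass (adjusted p = 0.184), and on 5-aza-dC IFI6 was called lower (-0.54 ± 0.12, adjusted p = 0.0114).

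The remaining genes of this role moved less. LGALS3BP, a secreted glycoprotein, rose by 0.50 in the combination (adjusted p = 0.0265). IFITM2 rose by 0.39 (adjusted p = 0.0437), and it shares most of its sequence with IFITM3, so a probe may read both. Under spike-in scaling neither LGALS3BP (adjusted p = 0.103) nor IFITM2 (adjusted p = 0.163) was called. IFITM1, which blocks fusion of viruses with the cell membrane, read 986 and 975% on siCONT, 1160 and 1860% on siUHRF1, 1350 and 2000% in the combination and 2460% on 5-aza-dC. The siUHRF1-2 arrays were the higher ones in both groups, and the difference in the combination did not pass (0.74, adjusted p = 0.0911). PLSCR1, a lipid scramblase induced by interferon, read 67.3 and 72.4% on siCONT, 47.5 and 50.3% on siCONT + TSA, 34.9 and 49.5% in the combination and 43.9% on 5-aza-dC. It fell in the combination (-0.75 ± 0.17, adjusted p = 0.0262), a call held in 14 of 24 alternatives. BST2 and IFITM3 were called in no comparison.

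Of the RNA-binding effectors, IFIT1 and IFIT3 rose in the combination and 7 of 9 tested genes were not called. The shares of all names called there were 16.1% higher and 8.07% lower. IFIT1 binds RNA that lacks the cap methylation of host transcripts. It read 71.8 and 72.5% on siCONT, 88.4 and 100% on siUHRF1, 156 and 154% on siCONT + TSA, 118 and 147% in the combination and 69.8% on 5-aza-dC. TSA alone raised it 2.14-fold (1.10 ± 0.13, adjusted p = 0.0116) and the combination 1.82-fold (0.87 ± 0.13, adjusted p = 0.00777). Both combination arrays lay below both arrays with TSA alone. UHRF1 depletion moved it by 0.38 without TSA (adjusted p = 0.461), and the 2 effects differed by -0.62 ± 0.19 (adjusted p = 0.723).

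IFIT3, which binds IFIT1 and stabilizes it, read 4.05 and 5.59% on siCONT, 6 and 5.22% on siCONT + TSA and 3.25% on 5-aza-dC, all below background. It read 5.31 and 7.37% on siUHRF1 and 11.8 and 15.4% in the combination. Only these groups, where it was above background, brought it into the tests. It was at least 2.59-fold above siCONT (1.50 ± 0.24, adjusted p = 0.00835) and at least 2.37-fold above siCONT + TSA (1.27 ± 0.24, adjusted p = 0.0467). The first call was lost without siCONT replicate 1. The second was lost when any 1 of the 8 arrays was left out, and with normexp the difference was -0.14. OAS2, which makes the second messenger of RNase L, was above background on combination replicate 1 (9.85%) and on 5-aza-dC (6.31%) and at 1.42 to 6% elsewhere. It was not tested in the siRNA arrays and was called at least 1.26-fold higher on 5-aza-dC. Only that 1 array, where it was high, brought it into the test. Under spike-in scaling its log2 difference there was 0.67 and the call was lost.

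On the 5-aza-dC array 6 of 10 tested RNA-binding effectors were called lower and 2 higher. Beside these counts, 23.9% of all names tested on that array were called lower and 25.2% higher. Under spike-in scaling, which was not the scaling of these counts, 71.4% of all names were called lower and 8.78% higher. IFIT2, another member of the IFIT cluster, read 46.8 and 46.3% on siCONT, 34.6 and 60.3% in the combination and 8.43% on 5-aza-dC (-2.46 ± 0.31, adjusted p = 0.00155). ISG20, an RNA exonuclease, read 2700 and 2620% on siCONT and 519% on 5-aza-dC, a log2 difference of -2.36. DDX60 (-2.11), OAS3 (-1.26), EIF2AK2 (-0.80), which encodes the kinase PKR, and the RNA editor ADAR (-0.44) were also called lower. IFIT5 read 213% on both siCONT arrays and 399% on 5-aza-dC and was called higher (0.90 ± 0.12, adjusted p = 0.00167), but it turned to -0.39 under spike-in scaling.

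In the ISG15 and ubiquitin system 1 gene rose and 1 fell in the combination among 5 tested, where 16.1% of all names were called higher and 8.07% lower. USP18, the protease that removes ISG15 and dampens interferon receptor signalling, read 322 and 325% on siCONT, 317 and 254% on siUHRF1, 231% on both siCONT + TSA arrays, 160 and 150% in the combination and 48.4% on 5-aza-dC. Both combination arrays lay below all other siRNA arrays. It fell by 1.06 on the log2 scale in the combination (SE 0.12, adjusted p = 0.00339) and differed by -2.74 on 5-aza-dC (SE 0.15, adjusted p = 8.02e-05). A near-identical copy, USP41, may share its probe. ISG15 itself, a ubiquitin-like modifier, read 4510 and 4440% on siCONT and 5310 and 5830% in the combination (0.31, adjusted p = 0.0587).

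HERC5 is the ligase that attaches ISG15 to new proteins. It read 1.08 to 1.41% on the 8 siRNA arrays, all below background, and 51% on 5-aza-dC (probe at chr4:89426889-89426948, plus strand). The rise on 5-aza-dC was called and was at least 10.2-fold (fitted log2 5.44 ± 0.16). HERC5 entered the test only through that 1 array. Its own spread in the fit came from the 8 siRNA arrays, all below background, and not from a detected signal. HERC6, its neighbour on chromosome 4, read 16.1 and 15.2% on siCONT and 21.4 and 23.9% in the combination (0.54, adjusted p = 0.0484), which was not called under spike-in scaling (adjusted p = 0.270). On 5-aza-dC it was below background at 3.45% and at least 4.52-fold lower. UBE2L6, the conjugating enzyme for ISG15, was lower on 5-aza-dC (-1.06). TRIM22, a ubiquitin ligase, was called in no comparison.

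Of the 3 GTPases tested, MX1 and GBP2 rose with TSA alone, and all 3 rose in the combination. The shares of all names called higher were 6.97% with TSA and 16.1% in the combination. MX1, an inhibitor of influenza virus replication, read 674 and 670% on siCONT, 736 and 791% on siUHRF1, 997 and 998% on siCONT + TSA, 1120 and 1060% in the combination and 923% on 5-aza-dC. It was called higher with TSA (0.57 ± 0.091, adjusted p = 0.0191) and in the combination (0.69 ± 0.091, adjusted p = 0.00468). The first call was lost under spike-in scaling (adjusted p = 0.128), and on 5-aza-dC its rise of 0.46 turned to -0.84 under that scaling. GBP2, a guanylate-binding protein, was below background on siCONT, siUHRF1 and 5-aza-dC at 1.25 to 2.99%, and read 7.97 and 10.4% on siCONT + TSA and 8.77 and 11.8% in the combination. It was at least 1.82-fold higher with TSA (adjusted p = 0.0269) and at least 2.03-fold higher in the combination (adjusted p = 0.0110). Only the TSA-treated groups, where it was high, brought it into the tests.

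MX2, which restricts HIV, read 6.93 and 11.4% on siCONT, 14 and 12.4% on siUHRF1, 17.9% on both siCONT + TSA arrays, 34.9 and 19.8% in the combination and 20.7% on 5-aza-dC. It was called higher in the combination (1.57 ± 0.32, adjusted p = 0.0186), where its second probe gave -0.20 and was not called. Its rise on 5-aza-dC (1.22, adjusted p = 0.0490) turned to -0.077 under spike-in scaling and to -0.015 with normexp.

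Among the other effectors SAMD9 and SAMD9L rose in the combination and IFI35 fell. SAMD9L, an antiviral protein that restrains growth, read 34.9 and 33.9% on siCONT, 37.8 and 39.7% on siUHRF1, 51.8 and 55.3% on siCONT + TSA, 55.8 and 57.9% in the combination and 6.75% on 5-aza-dC. TSA raised it by 0.64 ± 0.091 (adjusted p = 0.0153), which was not called under spike-in scaling (adjusted p = 0.0891). The combination raised it by 0.72 (adjusted p = 0.00422), and on 5-aza-dC it fell (-2.35). Its second probe gave 0.18 with TSA (adjusted p = 0.625) and 0.37 in the combination (adjusted p = 0.274), called in neither, and -3.35 on 5-aza-dC. SAMD9, its paralogue beside it on chromosome 7, read 3.87 and 4.97% on siCONT, below background, and 12.6 and 9.48% in the combination, at least 2.19-fold higher (adjusted p = 0.0140). Only the combination, where it was high, brought SAMD9 into the tests. On 5-aza-dC it was below background, as on siCONT. It is among the 19 members called lower there, but neither signal was detected, so no fold is given. IFI35 fell by 0.54 in the combination (SE 0.11, adjusted p = 0.0173; 0.0592 under spike-in scaling) and was also lower on 5-aza-dC (-1.93). PARP9 (-1.43), IFI44 (-1.40, at least 2.29-fold) and PARP14 (-0.71) were also called lower on 5-aza-dC, and CMPK2 was called in no comparison.

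The split on the 5-aza-dC array depended on the scaling. That array was brighter, with a 75th percentile of 822 against 245 to 338 on the other arrays. Scaling on the spike-in probes moved the median of all names to -1.25, with 8.78% of names called higher and 71.4% lower. Of the 11 members called higher, 3 then remained so: HERC5 (4.14), DHX58 (1.47) and IFI27 (1.14). This scaling lowered the difference of every member by the same log2 amount. Members called lower could therefore only move further down, and their staying lower is no check on those falls. The higher share of all calls went from 51.3% to 11%. In the siRNA groups the same scaling moved that share from 64.4% to 33.5% with TSA, where the median of all names became -0.11, and from 66.6% to 53.5% in the combination.

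**Figure D5:**
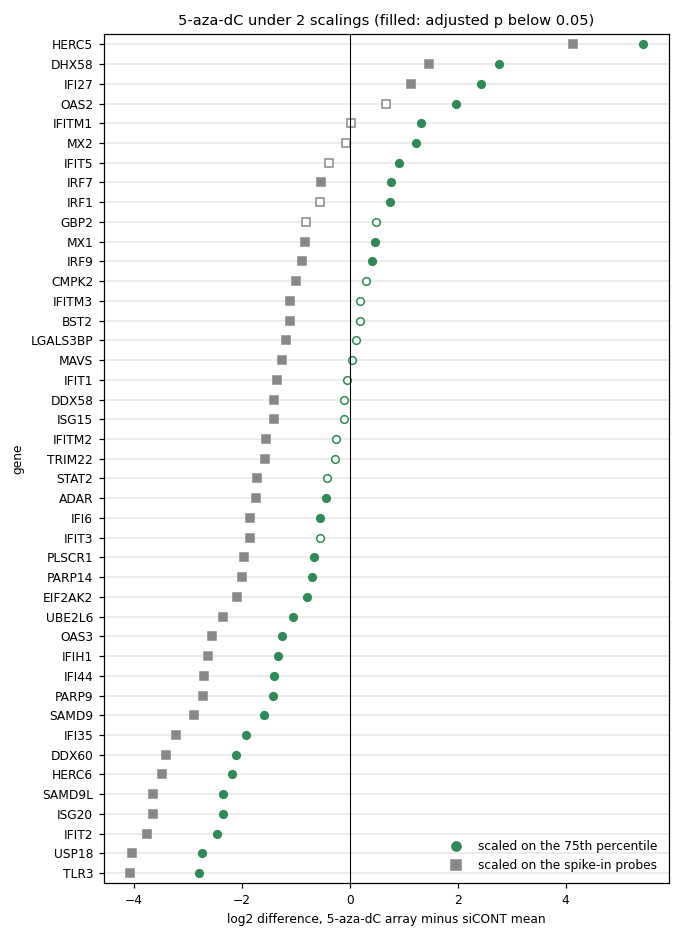
Log2 difference between the 5-aza-dC array and the siCONT mean for the 43 tested members under scaling on each array's 75th percentile (circles) and on the spike-in probes (squares). Filled symbols have an adjusted p below 0.05: 30 circles and 37 squares. HERC5, DHX58 and IFI27 are filled above 0 under both scalings. Of the members filled above 0 as circles, IRF1, IRF7, IRF9, MX1, MX2 and IFIT5 change sign. MAVS, IFITM3, BST2, LGALS3BP, GBP2 and CMPK2, open as circles, change sign as well.

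Genes around the pathway were taken from lists of ligands, receptors, adaptors and regulators. None of 9 interferon ligands was tested on the siRNA arrays, and IFNB1, the first interferon made by most cells, read 0.811 to 2.2% with no array above background. IL28A was above background on siUHRF1 replicate 2 (7.77%), combination replicate 1 (9.34%) and 5-aza-dC (9.54%), and was not called. None of 4 chemokine targets was tested, and of 7 endogenous retrovirus genes 1 was tested on the siRNA arrays and not called. The arrays do not measure retroviral repeats beyond such single genes.

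Of the 10 receptors and kinases 0 were called higher and 3 lower in the combination: IFNAR1 (-0.47), a subunit of the receptor for interferon alpha and beta, IL10RB (-0.45) and IFNGR1 (-0.45). The shares of all names called there were 16.1% higher and 8.07% lower. Of 12 adaptors tested, TRIM25, the ligase that activates RIG-I, was the 1 called in the combination, and it fell by 1.25 (adjusted p = 0.000885). It read 3280 and 3310% on siCONT, 1480 and 1490% on siCONT + TSA, 1470 and 1310% in the combination and 563% on 5-aza-dC. On the 5-aza-dC array the largest called differences in these pathway lists were those of TRIM25 (-2.55), SOCS1 (2.25), ADARB1 (-2.06), an RNA editor, TMEM173 (1.76) and RNF135 (-1.38), a ligase for RIG-I. With TSA alone TRIM25 (-1.15) and IL10RB (-0.55) were called.

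Of 8 tested genes of other RNA sensing and decay, SKIV2L (0.43), an RNA helicase of the exosome pathway, rose in the combination and ADARB1 (-0.43) fell. Beside the counts of this paragraph, 16.1% of all names were called higher in the combination and 8.07% lower. In the DNA-sensing list 1 of 5 tested genes was called in the combination. TMEM173, which encodes the adaptor STING, read 16.3 and 12.8% on siCONT, 16.2 and 35.6% on siUHRF1, 24.1 and 26.4% on siCONT + TSA, 87.1 and 102% in the combination and 49% on 5-aza-dC. The combination arrays lay above all others, with a log2 difference of 2.71 ± 0.36 from siCONT (adjusted p = 0.00476) and 1.91 from siCONT + TSA (adjusted p = 0.0455). SOCS1, an inhibitor of the receptor kinases, read 14.6 and 16.2% on siCONT, 26.9 and 34.7% in the combination and 73.2% on 5-aza-dC, and was called higher in both (0.99 and 2.25). RNF125 (-1.15) and TNFAIP3 (-0.67), which also restrain RNA sensing, fell in the combination, and 5 of the 8 negative regulators were not called there.

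UHRF1 itself read 644 and 645% on siCONT, 128 and 105% on siUHRF1, 731 and 728% on siCONT + TSA, 79.1 and 65% in the combination and 1290% on 5-aza-dC. It fell by 2.47 on the log2 scale with siUHRF1 and differed by -3.17 in the combination. The share of probes well above background was 43.6% to 46.6% across siRNA arrays and 51.6% on 5-aza-dC, and ACTB and GAPDH were called in no comparison. Of 9 immune cell markers, 0 to 2 were above background on the first 6 arrays, 4 and 3 in the combination and 5 on 5-aza-dC. Their summed level was 18.4 to 27.6% on the first 6 arrays, 49 and 38.1% in the combination and 115% on 5-aza-dC. CD3D and CSF1R, a T-cell and a macrophage gene, were called higher in the combination from below background. Of 8 epithelial markers 4 were tested and 2 were called higher there, beside 16.1% of all names. KRT19 was at least 4.26-fold higher, and KRT18 read 4290 and 4370% on siCONT and 8360 and 6920% in the combination (0.81, adjusted p = 0.00870). The summed epithelial level was 4990 to 6210% on the first 6 arrays, 9410 and 7680% in the combination and 4820% on 5-aza-dC, and CDH1 and VIL1 were below background on every array. KRT18 made up most of that sum, so it hides dimmer markers. EPCAM read 10.4 and 1.24% on siCONT, the second below background, and 92.5% on 5-aza-dC, where KRT19 read 66.5%. Of 6 epithelial markers tested on 5-aza-dC, 2 were called higher and 0 lower, beside 25.2% and 23.9% of all names. Of 4 stromal markers COL1A1 was called higher in the combination, from 17.3 and 13.5% to 35 and 67.7% (1.67, adjusted p = 0.0364). The summed stromal level was 30.8 and 26.1% on siCONT, 24.3 to 53.7% on the next 4 arrays, 45.5 and 76.4% in the combination and 48% on 5-aza-dC. The part of these genes in the results on the interferon set was not tested.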

How the data were processed

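Total RNA from RKO cells was hybridized to 9 1-colour arrays. The deposited scanner files hold linear intensities that the authors extracted with Agilent Feature Extraction 10.7, background-subtracted and detrended, with no normalization between arrays. A deposited value table of the same arrays, also linear intensity, served as an alternative. Per the file headers, probe coordinates are hg19. No column was left unmapped (0).

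Control spots and outlier spots were left out, spots of a probe were averaged, and log2 intensities were expressed relative to the 75th percentile of each array, computed here from the deposited files. limma 3.58.1 in R 4.3.3 (lmFit, eBayes) was fitted to the 8 siRNA arrays, or to all 9 for 5-aza-dC, on the assumption that its lone array has the spread of the other groups. A probe was tested when every array of some group was well above background, with Benjamini-Hochberg adjustment over all probes. The procedure was also run on simulated data in which a probe had the same spread in every group. That run cannot check the effect of pooling unequal spreads. The study names t-tests and ANOVA, and no normalization. Array number limits precision.

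The members and lists were chosen with earlier results of these data known. Named were all sensors and transcription factors, the 5 largest called rises and 3 largest called falls per comparison, members that went from below to above background, UHRF1, ACTB, GAPDH and per comparison up to 5 called genes of the other pathway lists with the largest change. Other members, receptors, SKIV2L, called marker genes, IL28A and IFNB1 were named after their values were seen, and 1 gene of the pathway lists is not reported here. Alternatives were normexp with an offset of 50, other scalings, filters, tests, a replicate block and leaving out arrays. All siRNA arrays share 1 slide and 1 scan, so no block for these was possible. Same-numbered arrays deviated together between siUHRF1 and the combination (r = 0.562), the groups that share siRNAs, and not between other groups (r from -0.064 to 0.084).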

Additional observations from a re-analysis of the deposited data

Results flagged for a closer look

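IFI27 stood out because TSA altered the effect of UHRF1 depletion by limma's test, by 2.05 on the log2 scale (adjusted p = 0.0312). Both siCONT arrays were below background, so the size is not exact. Of 20 alternatives 8 kept the call, and the replicate block did not (adjusted p = 0.0555). IFI27 was higher in both combination arrays than in every other array.

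IFIT1 stood out because both UHRF1-depleted arrays lay above their controls without TSA and below them with TSA, a difference between the effects of -0.62 on the log2 scale. limma's test of that difference did not pass (adjusted p = 0.723, unadjusted p = 0.0166), so the effects were not shown to differ.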

How the results depend on the processing

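The main analysis called 0, 5, 18, 4, 1 and 30 members after UHRF1 depletion, with TSA, in the combination, for UHRF1 depletion under TSA, for the difference of its effects and on 5-aza-dC. Counts moved by over 1.5 times as follows, and the causes were not tested. With normexp they were 2 (TSA), 6 (combination), 0 (under TSA) and 0 (difference). The difference gave 0 with quantile normalization, spike-in scaling, no filter on dim probes, a filter on every array, a trended and robust prior, and the replicate block, which moved no other count by over 1.5 times. Its numbers pair the siRNAs and not all groups. TSA gave 3 with no filter and 20 when only the compared arrays were fitted, and UHRF1 depletion under TSA gave 1 with the filter on every array. At an unadjusted p below 0.05 the first 5 counts were 4, 14, 28, 12 and 5, with no share of all names taken. With a 2-fold minimum TSA gave 3 and the combination 9. The methods' t-test gave 2 (siUHRF1), 18 (TSA) and 9 (under TSA) unadjusted, and 11 (TSA), 2 (combination) and 0 (under TSA) after Benjamini-Hochberg. Over members above background on both siCONT arrays, chosen after seeing the data, UHRF1 depletion under TSA gave 1 and the difference 0.

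Leaving out each array in turn gave 0 to 0, 1 to 8, 7 to 24, 2 to 6, 0 to 1 and 19 to 29. Without siCONT replicate 1 TSA gave 1, the combination 7 and 5-aza-dC 19, and without siCONT replicate 2 TSA gave 2 and the combination 10. Without either siUHRF1 array TSA gave 8, without either siCONT + TSA array TSA gave 1 and UHRF1 depletion under TSA 2, and without any 1 of these or of the combination arrays the difference gave 0. Where a group was left with 1 array, that array was assumed to vary like the others.

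Single genes kept direction and call in 831 of 1010 values, lost the call in 169 and reversed in 10. With normexp, DHX58 (-0.15) and IFIT3 (-0.14) reversed under TSA, and OAS2 (-0.62) and MX2 (-0.015) on 5-aza-dC. Spike-in scaling reversed IRF1 (-0.56), IRF7 (-0.53), IRF9 (-0.89), MX1 (-0.84), MX2 (-0.077) and UHRF1 (-0.30) on 5-aza-dC. Dim members have only lower limits.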
